A study of Homo sapiens with 14 samples.

Results

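The genes described here are the human protein-coding genes with a genomic span, from first to last annotated base, of at least 300 kb in GENCODE release 44 (GRCh38). The rule uses the annotation and no measured value, and it chose 826 of 19911 protein-coding genes (4.15%). Their median span was 446 kb, the longest reached 2474 kb, and 71 spanned at least 1 Mb. The last genes left out were ARMH4 (298.4 kb), GHR (298.44 kb) and PCBP3 (298.76 kb), and the first taken in were ENSG00000271949 (300.11 kb), SYT16 (300.58 kb) and COBL (300.61 kb).

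Poly(A) RNA of MDA-MB-231, a human breast cancer line of basal and mesenchymal-like character, was sequenced in 14 libraries that form 7 groups of 2 replicates. The control group carries no compound and no time in its labels and is called untreated there, while the study's text also describes its control as DMSO-treated. The other 6 groups received 5 µM of RBI2 or 5 µM of CX-5461, 2 small molecules that lower ribosomal RNA synthesis, for a labelled 10, 30 or 120 min. The same 2 control libraries serve all 6 comparisons with the control, the deposited files carry other time marks than the labels (the labels are used here), and nothing says that replicates came from separate cultures, so p-values measure only the spread between these libraries, which may be technical.

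RNA polymerase II has to cross the whole span of a gene before the mRNA is complete, and most of a very long gene is intron, so such genes take far longer to transcribe than short ones. Topoisomerases release the twist that builds up in the DNA around a moving polymerase, and cells in which topoisomerases or the elongation kinases are blocked are known for losing RNA of long genes first. Many of the longest human genes encode adhesion molecules, synaptic proteins and ion channels of neurons and muscle, and several lie in common fragile sites, regions that break when DNA replication is slowed. The question put to the data was whether these genes were lower, relative to all genes, after either compound. Poly(A) RNA includes mRNA made before a compound was added, so these levels are not rates of transcription. Whether elongation changed was not tested.

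The cell line was checked against fixed markers, in TPM, a level scaled per transcript length. VIM, the mesenchymal intermediate filament vimentin, lay between 2084 and 2694 TPM over the 14 libraries, CD44 between 472 and 750 TPM, AXL between 239 and 392 TPM, CAV1 between 204 and 333 TPM and EGFR between 17.4 and 37.8 TPM. The hormone receptors were near 0 (ESR1 at most 0.205 TPM, PGR at 0 TPM), as were CDH1 (at most 0.285 TPM) and ERBB3 (at most 0.736 TPM). EPCAM (11.4 to 22.4 TPM) and GATA3 (1.82 to 3.48 TPM), which were listed as low or absent, were detected. Markers of blood, vessel, fibroblast and liver cells (PTPRC, PECAM1, DCN and ALB) did not pass 0.63 TPM in any library, and COL1A1 lay between 0.675 and 2.16 TPM.

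PDE4B, FRMD4B, MAML3 and AKAP13 were the members called with the most reads, and for each the 250 bases before the first base of its most-read transcript are shown, since that start can lie far inside the locus. PDE4B encodes a phosphodiesterase that breaks down cAMP, FRMD4B a scaffold protein with a FERM domain, MAML3 a coactivator of Notch signalling and AKAP13 an anchoring protein for protein kinase A. The windows are PDE4B chr1:66331754-66332003 (plus strand), FRMD4B chr3:69386089-69386338 (minus strand), MAML3 chr4:140154185-140154434 (minus strand) and AKAP13 chr15:85380353-85380602 (plus strand), all in GRCh38, printed 5′ to 3′ in the direction of the gene, with capitals for matches to the GC box or the CCAAT box on either strand. The start of the most-read transcript falls inside the RefSeq promoter region of the gene for FRMD4B, MAML3 and AKAP13 and not for PDE4B.
PDE4B: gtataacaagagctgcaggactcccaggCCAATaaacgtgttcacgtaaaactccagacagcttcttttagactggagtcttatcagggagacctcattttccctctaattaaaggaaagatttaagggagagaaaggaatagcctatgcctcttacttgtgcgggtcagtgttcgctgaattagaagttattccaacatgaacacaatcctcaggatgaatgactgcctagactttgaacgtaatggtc
FRMD4B: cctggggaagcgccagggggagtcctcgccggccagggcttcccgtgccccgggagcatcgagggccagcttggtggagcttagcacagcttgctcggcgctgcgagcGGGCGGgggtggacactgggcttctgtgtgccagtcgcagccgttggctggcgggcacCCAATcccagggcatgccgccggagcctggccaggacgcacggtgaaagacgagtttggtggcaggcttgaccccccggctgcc
MAML3: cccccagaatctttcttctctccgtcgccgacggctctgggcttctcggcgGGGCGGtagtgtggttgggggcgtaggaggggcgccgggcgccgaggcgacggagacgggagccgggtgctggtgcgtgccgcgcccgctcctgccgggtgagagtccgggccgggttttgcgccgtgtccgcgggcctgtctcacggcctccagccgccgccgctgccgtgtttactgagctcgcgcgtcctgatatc
AKAP13: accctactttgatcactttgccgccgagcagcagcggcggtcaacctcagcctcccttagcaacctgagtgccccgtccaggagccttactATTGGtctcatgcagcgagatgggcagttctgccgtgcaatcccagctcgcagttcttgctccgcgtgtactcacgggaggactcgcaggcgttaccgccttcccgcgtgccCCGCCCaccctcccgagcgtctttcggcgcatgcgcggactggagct

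In these windows 6 motifs were searched on both strands. The motif of AP-1 was spelled TGACTCA and the cyclic AMP response element (CRE) TGACGTCA. The motif named E-box was spelled CACGTG and the TATA box TATAAA. The last pair was the GC box with the letters GGGCGG, and the CCAAT box, spelled as named. The PDE4B window held a CCAAT box 222 bases before the start and no GC box. The FRMD4B window held a GC box at -142 and a CCAAT box at -84, and the AKAP13 window held both on the reverse strand, at -47 and -159. MAML3 had a GC box at -199. Of 27305 RefSeq promoters of the same length, 42.3% held a GC box, 33% a CCAAT box, 11.1% a TATA box, 6.49% an E-box, 4.16% an AP-1 motif and 1.77% a CRE. Of the TATA box, E-box, AP-1 and CRE none was found in the 4 windows, and a match or its absence describes these letters only. The GC content of the windows was 42.8% for PDE4B, 71.2% for FRMD4B, 72.4% for MAML3 and 63.6% for AKAP13.

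A long locus need not be read from end to end. PDE4B (chromosome 1, 65792514 to 66374579) spans 582 kb, but 99.3% of its reads were assigned to a transcript of 42.6 kb that starts 539 kb inside the locus. FRMD4B (chromosome 3, 69168782 to 69542583, 374 kb) had 84.8% of its reads in a 217-kb transcript. MAML3 (chromosome 4, 139716753 to 140154184, 437 kb) had all its reads in a transcript of the full length, and AKAP13 (chromosome 15, 85380571 to 85749358, 369 kb) had 47.4% in its full-length transcript. Over all members, 49.7 to 53.6% of reads per library fell in transcripts that themselves span at least 300 kb, 25.5 to 27.5% in transcripts of 100 to 300 kb and 19.3 to 24.0% in transcripts under 100 kb. No transcript of at least 300 kb is annotated for 53 members.

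Of the 826 genes, 713 had at least 1 read in some library and 113 had none. The test needed enough reads in at least 1 group, and 429 members (51.9%) passed that filter, against 63.8% of the 19085 other protein-coding genes. The other 397 members enter only the summed reads. The tested members had longer mature transcripts than the other tested protein-coding genes (median 3640 against 2346 bases), more exons (11.2 against 7.21), a lower GC content of the mature transcript (44.3% against 48.6%) and a lower level per length (median 4.83 against 15.3 TPM). Among them 135 reached 10 TPM and 85 stayed under 1 TPM.

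Between 161708 and 311841 reads per library were assigned to the members, out of library totals of 14112299 to 24849354. The members' share of all assigned reads was 1.15 and 1.3% in the 2 controls. After RBI2 it was 1.20 and 1.22% at 10 min, then 1.17 and 1.20% at 30 min, and finally 1.22 and 1.24% at 120 min. After CX-5461 it was 1.12 and 1.16% at 10 min, then 1.20 and 1.05% at 30 min, and finally 1.27 and 1.47% at 120 min. The RBI2 libraries all lay between the control libraries, 1 CX-5461 library at 10 min and 1 at 30 min lay below both, and 1 at 120 min lay above both.

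As group means the share was 1.22% ± 0.10 (SD, n = 2) in the control, 1.21% ± 0.0114, 1.19% ± 0.0197 and 1.23% ± 0.0155 with RBI2 at 10, 30 and 120 min, and 1.14% ± 0.0310, 1.13% ± 0.111 and 1.37% ± 0.139 with CX-5461. An exact two-sided permutation test of 2 against 2 libraries cannot give a p below 0.333, so no share was tested. The 5 members with the most reads held 15.8% of the members' reads, and reads of retained-intron transcripts made up 2.64 to 3.91% of them.

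The second control library stood apart. Genes of the mitochondrial genome took 20.6% of its reads, against 8.14 to 11.3% in the other 13 libraries, and they enter the total by which each share is divided. Counted over reads outside mitochondrial genes, the members' share was 1.27% in the first control and 1.63% in the second, and the group means became 1.45% in the control, 1.32, 1.3 and 1.37% for the RBI2 times and 1.25, 1.23 and 1.5% with CX-5461. The first control now lay below most treated libraries and the second above all of them, and the order of the groups changed. Whether the mitochondrial share had a part in any result below was not tested, so the members' medians and the genes called against the control are also given without this library.

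**Figure D1:**
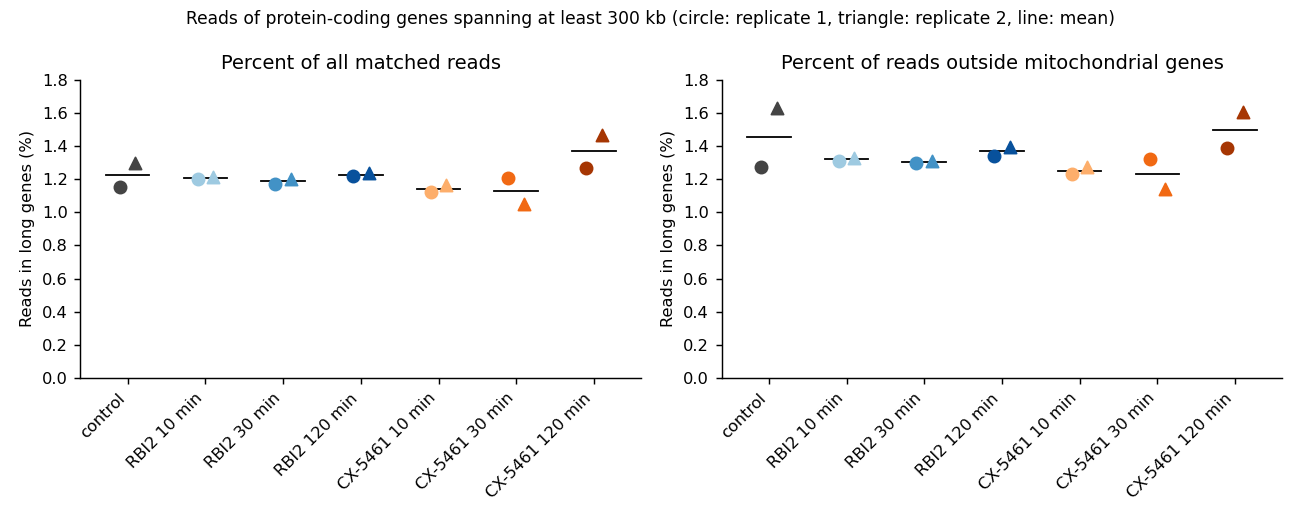
Reads of the 826 genes as a percentage of all assigned reads (left) and of reads outside mitochondrial genes (right), for the control and each compound and time; circles are replicate 1, triangles replicate 2 and lines the mean of 2. On the left the control libraries sit at 1.15 and 1.3%, and on the right at 1.27 and 1.63%, with the second control above every treated library.

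Levels of single genes were compared as normalized read counts scaled to a common library total (CPM), in 1 model of all 14 libraries over 15426 genes of every kind. A log2 fold change below 0 means less of the gene in the treated group. With CX-5461 the median over the 429 members was -0.22 at 10 min and -0.27 at 30 min, against -0.04 and -0.05 over all genes tested. At 120 min both medians were 0.06. The medians after RBI2 stood at -0.11 (10 min), -0.20 (30 min) and -0.14 (120 min), against 0.01, -0.01 and 0.01 over all genes.

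The share of members below 0 followed the medians. It came to 69.2, 74.4 and 63.9% for RBI2 (all genes 49.2, 50.8 and 48.9%) and to 79.5, 80.4 and 39.2% for CX-5461 (all genes 54.0, 54.7 and 41.1%). The quartiles of the members lay at -0.44 and -0.03 at 10 min of CX-5461 and at -0.41 and 0.19 at 120 min of RBI2. Members are not replicates of a condition, so these medians carry no p.

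The lower medians depended on the second control library. Without it the members stood at 0.06, -0.00 and 0.04 for the RBI2 times and at -0.02, -0.03 and 0.22 for the CX-5461 times, so that none stayed below -0.03. Without the first control the values were -0.30, -0.39 and -0.29 for RBI2, then -0.41, -0.45 and -0.13 for CX-5461. Against the mean of all libraries, the median member deviated by 0.28 in the second control, -0.06 in the first, and 0.06 and 0.27 in the CX-5461 libraries at 120 min. The other 10 libraries lay between -0.20 and 0.01.

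The difference from the other genes did not begin at 300 kb. At 10 min of CX-5461 the median of protein-coding genes was 0.16 for spans under 10 kb, 0.07 for 10 to 30 kb, -0.05 for 30 to 100 kb and -0.19 for 100 to 300 kb, and among the members it was -0.22 for 300 to 500 kb, -0.23 for 500 kb to 1 Mb and -0.28 for the 18 members tested of at least 1 Mb. At 30 min of CX-5461 the same classes ran from 0.21 to -0.24 below 300 kb, and the members stood at -0.23, -0.33 and -0.29. At 120 min of RBI2 they ran from 0.13 to -0.17, with the members at -0.14, -0.19 and -0.11. Genes of 100 to 300 kb were therefore about as low as those past 300 kb in these comparisons. At 120 min of CX-5461 the classes up to 1 Mb lay between 0.06 and 0.09, and the 18 longest genes stood at -0.06.

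Without the second control library the trend with span was smaller at 10 min of CX-5461, from 0.02 for genes under 10 kb to -0.00 for genes of 100 to 300 kb, and the members stood at -0.02, 0.00 and, for the 18 of at least 1 Mb, -0.10. At 30 min it ran from 0.09 to -0.04 (62.8% of the genes of 100 to 300 kb below 0), with the members at -0.03, -0.05 and 0.01. At 120 min of CX-5461 it ran the other way, from -0.09 to 0.20. Without the first control it was steeper at 10 min, from 0.33 to -0.35.

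**Figure D2:**
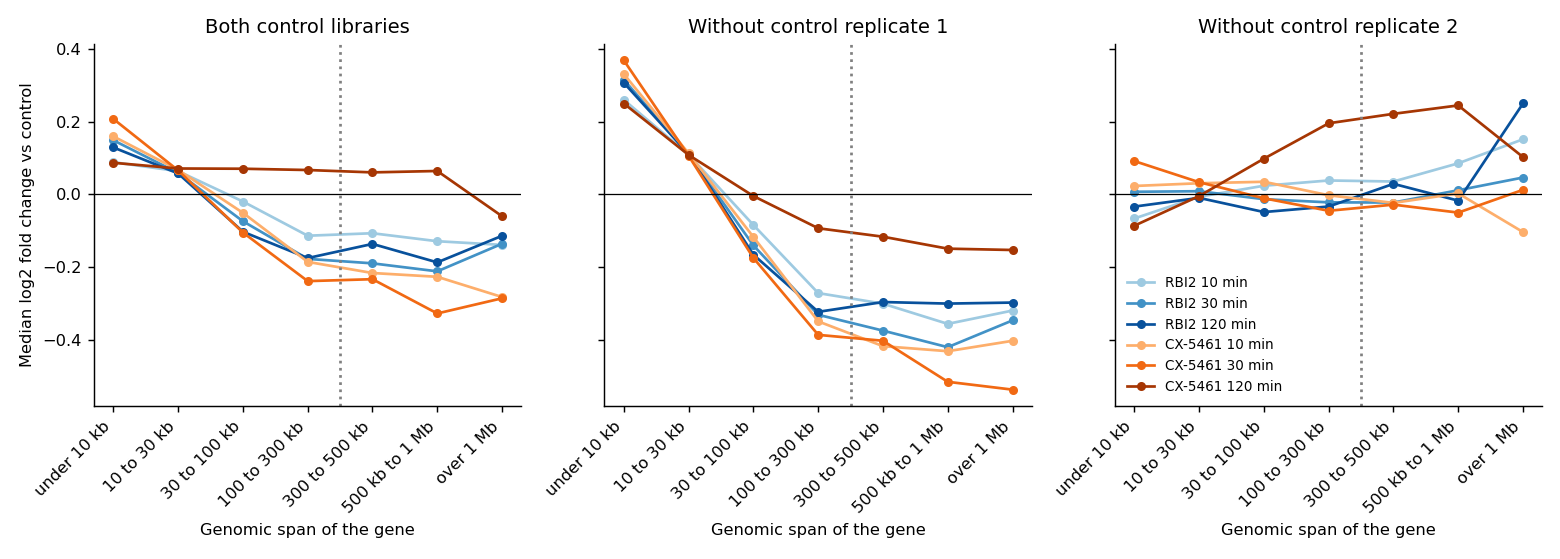
Median log2 fold change against the control of protein-coding genes in 7 classes of genomic span, for the 6 treated groups, with both controls (left), without control replicate 1 (middle) and without control replicate 2 (right); the dotted line marks 300 kb. With both controls the lines of CX-5461 at 10 and 30 min fall from 0.16 and 0.21 below 10 kb to -0.28 and -0.29 at 1 Mb and more, and on the right they lie between 0.09 and -0.10.

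The 2 replicates of a group differed by span as well. In the control, replicate 2 exceeded replicate 1 by a median log2 of 0.34 over the members and of 0.30 over genes of 100 to 300 kb, and fell short of it by 0.28 over genes under 10 kb. The replicates of CX-5461 differed by 0.05 at 10 min, -0.20 at 30 min and 0.21 at 120 min over the members. Those of RBI2 differed by 0.02, 0.03 and 0.05. The gap between the 2 controls was thus larger than any median shift of the members against the control.

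**Figure D3:**
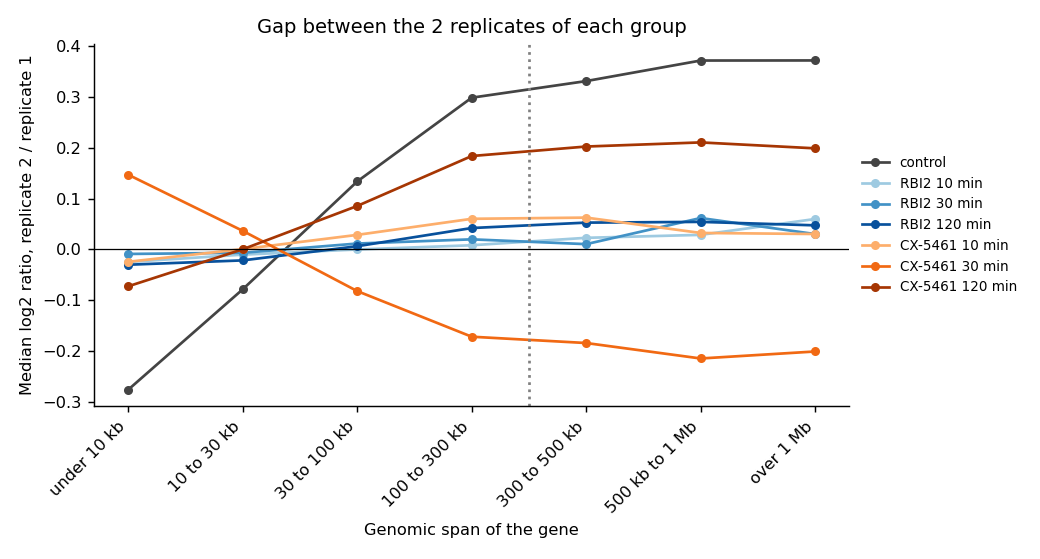
Median log2 ratio of replicate 2 to replicate 1 within each of the 7 groups, by class of genomic span. The control runs from -0.28 for genes under 10 kb to 0.37 for genes of at least 1 Mb, while the classes of the RBI2 groups run from -0.03 to 0.06.

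Genes with long mature transcripts were lower too, and members have longer mature transcripts than other genes. At 10 min of CX-5461 the members' median was 0.02, -0.10, -0.21, -0.32 and -0.35 from mature lengths under 1.5 kb to over 6 kb, and that of other protein-coding genes was 0.12, 0.04, -0.06, -0.14 and -0.25. The members stood lower in each of the 5 length classes. At 120 min of RBI2 the members stood at -0.11, -0.13, -0.21, -0.27 and 0.06, against 0.03, 0.02, -0.07, -0.09 and 0.01, and so were not lower in the longest class. Without the second control library the members' medians lay between -0.07 and 0.01 at 10 min of CX-5461 and between -0.08 (the shortest class) and 0.33 (the longest) at 120 min of RBI2. With a correction for GC content and mature length in every library, the members' medians moved to -0.07, -0.08 and -0.09 for RBI2, then -0.05, -0.05 and 0.03 for CX-5461.

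The medians differed little by which transcripts of a locus were read. The 262 tested members with most of their reads in transcripts of at least 300 kb had a median of -0.22 at 10 min of CX-5461, as did the 167 others. The 2 sets had medians of -0.13 and -0.18 at 120 min of RBI2.

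Single members were called where the adjusted p was under 0.05 and the change at least 1 on the log2 scale, in the quasi-likelihood test of edgeR, adjusted by Benjamini-Hochberg over all 15426 genes. At 10 min of CX-5461, 3 members (0.699%) were called, all lower: PDE4B, MAML3 and FRMD4B. The background was 1.64% of all genes in either direction and 0.888% for falls. The members' share was thus no larger than that of all genes. Leaving out the first control raised the count to 31 of the same 429 members (8.33% of all genes), and leaving out the second lowered it to 1 (0.950%).

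PDE4B had the largest change. Its level was 2.42 and 3.35 CPM in the controls and 0.808 and 0.834 CPM at 10 min of CX-5461. It was 3.0 and 2.86 CPM at 30 min and 2.89 and 3.48 CPM at 120 min of CX-5461. The 2 libraries at 10 min were the lowest of all 14, and the later groups overlapped the control.

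After RBI2, PDE4B stood at 1.76 and 1.98 CPM (10 min), 3.13 and 2.31 CPM (30 min) and 2.24 and 2.32 CPM (120 min). Its log2 fold change at 10 min of CX-5461 was -1.80 (SE 0.25, adjusted p = 0.0031, edgeR), on 15 reads in each treated library and 39 and 42 reads in the controls. Without the second control it was -1.55 (edgeR adjusted p = 0.013). The transcript of 42.6 kb carried this change, so it concerns the short end of a long locus. With transcript lengths as an offset the value was -1.19 and no longer passed (edgeR adjusted p = 0.096).

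MAML3 stood at 2.49 and 3.51 CPM in the controls, and after CX-5461 at 1.40 and 1.17 CPM (10 min), 1.46 and 2.10 CPM (30 min) and 2.20 and 3.07 CPM (120 min). With RBI2 its libraries lay between 1.91 and 3.12 CPM. The CX-5461 libraries at 10 min lay below every other library. The log2 fold change there was -1.21 (SE 0.28, edgeR adjusted p = 0.037), on 26 and 21 reads, and without the second control -0.95 (edgeR adjusted p = 0.20).

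FRMD4B stood at 4.10 and 6.63 CPM in the controls and at 2.64 and 2.45 CPM at 10 min of CX-5461. The other CX-5461 libraries lay between 3.75 and 5.62 CPM, and the RBI2 libraries between 3.89 and 5.31 CPM. Again only the libraries at 10 min of CX-5461 lay below all others. The log2 fold change was -1.06 (SE 0.23, edgeR adjusted p = 0.028), and without the second control -0.69 (edgeR adjusted p = 0.15). In bulk RNA such as this, fewer cells with a transcript and less of it per cell cannot be told apart.

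With no limit on the size of the change, 12 members (2.8%) passed at 10 min of CX-5461, all lower, against 4.77% of all genes in either direction and 2.98% lower. The genes in this and the next sentences that were not called were chosen after their values were seen. ADAMTS12, a secreted metalloproteinase, went from 27.7 and 42.3 CPM in the controls to 19.0 and 19.5 CPM (log2 fold change -0.86, SE 0.20, edgeR adjusted p = 0.037). ZFHX3, a transcription factor with zinc fingers and homeodomains, went from 35.3 and 56.3 CPM to 24.9 and 26.1 CPM (-0.84, SE 0.20, edgeR adjusted p = 0.036). SRGAP1, which acts in Slit and Robo signalling, went from 16.0 and 21.2 CPM to 9.49 and 11.5 CPM (-0.82, SE 0.19, edgeR adjusted p = 0.034). In each of these genes both treated libraries lay below both controls, which adds no support, since the genes were chosen after their values were seen. Transcripts of at least 300 kb held 98.0% of the reads of ADAMTS12, 99.4% of SRGAP1 and 0% of ZFHX3. Over all members tested more passed without the first control and fewer without the second, and the same held over all genes. All 12 kept their sign without the second control and 1, PDE4B, still passed. Corrected for GC content and length, 9 of the 12 passed (7.92% of all genes), and with transcript lengths as an offset 0 (2.26%).

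At 120 min of RBI2, 6 members (1.4%) were called, 3 higher and 3 lower, against 1.82% of all genes (1.42% higher and 0.395% lower). It was 24 of the same 429 members without the first control (8.21% of all genes) and 2 without the second (1.01%). The calls were lost when either of the RBI2 libraries of that time was left out. AKAP13 was the best measured of the 6 members. It stood at 17.6 and 21.8 CPM in the controls. After RBI2 it was 18.4 and 25.9 CPM (10 min), 24.6 and 21.8 CPM (30 min) and 37.4 and 43.5 CPM (120 min). After CX-5461 it was 13.3 and 14.6 CPM (10 min), 19.5 and 13.9 CPM (30 min) and 17.6 and 26.4 CPM (120 min). The RBI2 libraries at 120 min were above every other library.

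The log2 fold change of AKAP13 at 120 min of RBI2 was 1.04 (SE 0.23, edgeR adjusted p = 0.018). Without the second control it was 1.19 (edgeR adjusted p = 0.026), and without the first 0.88 (edgeR adjusted p = 0.025), which falls short of the size required. Over its transcripts of at least 300 kb alone it was 2.10 (edgeR adjusted p = 0.018).

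The other 5 genes called at 120 min of RBI2 had few reads. Of 22 alternative settings the call was kept in 10 for NKAIN3, 4 for HMCN1 and 2 each for CACNA1A, MAP2 and DNM3. No setting reversed a direction. NKAIN3, which encodes a membrane protein that binds the sodium pump, went from 14 and 9 reads in the controls to 36 and 25 (log2 fold change 1.30, SE 0.36, edgeR adjusted p = 0.036). CACNA1A, the pore subunit of a neuronal calcium channel, went from 19 and 14 reads to 37 and 34 (1.01, SE 0.30, edgeR adjusted p = 0.045), with none of its reads in transcripts of at least 300 kb and the largest part, 20.8%, in a retained-intron transcript of 6.59 kb. Lower were HMCN1, an extracellular matrix protein (18 and 28 reads to 12 and 8, -1.34, SE 0.41, edgeR adjusted p = 0.047), MAP2, a microtubule-associated protein (23 and 19 to 6 and 12, -1.29, SE 0.40, edgeR adjusted p = 0.047), and DNM3, a dynamin of membrane fission (23 and 28 to 11 and 14, -1.14, SE 0.34, edgeR adjusted p = 0.044). Transcripts of at least 300 kb held 95.2% of the reads of NKAIN3, 92.4% of HMCN1, 75.2% of DNM3 and 4.78% of MAP2. In each gene the treated and control libraries did not overlap in CPM, which adds no support, since the same libraries gave the calls. Without the second control the log2 fold change was 1.17 for NKAIN3, 0.96 for CACNA1A, -0.79 for HMCN1, -1.26 for MAP2 and -0.80 for DNM3. These calls were not kept there.

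**Figure D4:**
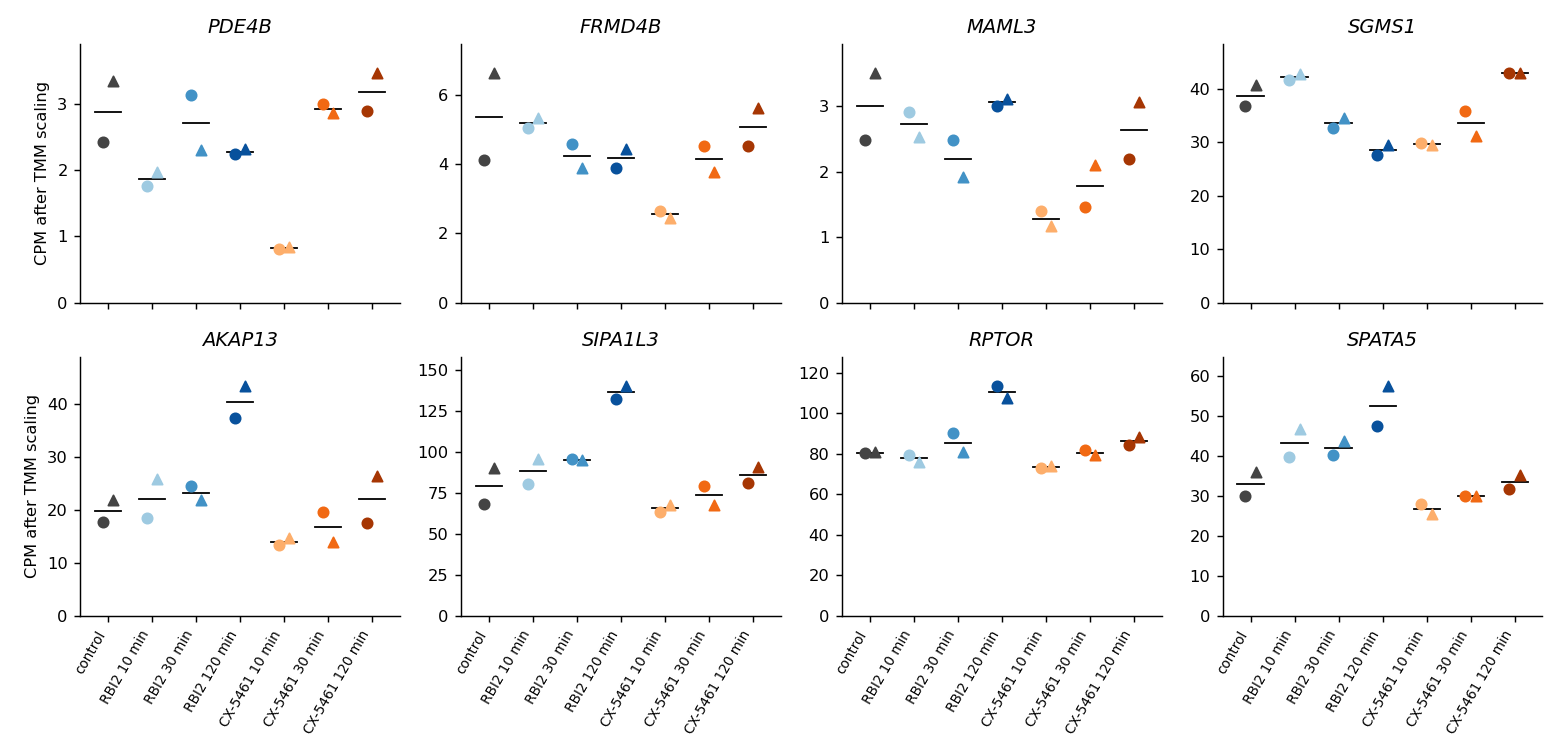
Level in CPM of 8 members in each library, by group, with circles for replicate 1 and triangles for replicate 2. PDE4B, MAML3 and FRMD4B are lowest at 10 min of CX-5461, and AKAP13, SIPA1L3, RPTOR and SPATA5 are highest at 120 min of RBI2.

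With no limit on size, 52 members (12.1%) passed at 120 min of RBI2, 21 higher and 31 lower, against 18% of all genes (8.9% higher and 9.07% lower). Their log2 fold changes ran from -1.34 to 1.30. Over all members tested more passed without the first control and fewer without the second, and the same held over all genes. The share of all genes passing also fell without either RBI2 library of that time. The next counts without a control follow the 52 members only. Without the second control 17 of the 52 still passed, 14 higher and 3 lower, and without the first 43. Corrected for GC content and length, 22 passed (10.6% of all genes), and with transcript lengths as an offset 4 (1.4%), all of them higher. Of the 262 members read mostly as transcripts of at least 300 kb, 39 (14.9%) passed, and of the 167 others 13 (7.78%).

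Several well-measured members rose at 120 min of RBI2. RPTOR, the scaffold subunit of the growth-controlling kinase complex mTORC1, stood at 80.2 and 80.7 CPM in the controls and 114 and 107 CPM at 120 min (log2 fold change 0.46, SE 0.07, edgeR adjusted p = 0.0080). The other 10 libraries lay between 72.9 and 90.1 CPM. SIPA1L3, which turns off Rap GTPases, stood at 68.4 and 90.5 CPM and then at 132 and 141 CPM (0.78, SE 0.14, edgeR adjusted p = 0.0097). SPATA5, an ATPase that acts in the maturation of the large ribosomal subunit, stood at 30.0 and 36.0 CPM in the controls, and after RBI2 at 39.8 and 46.7 CPM (10 min), 40.3 and 43.8 CPM (30 min) and 47.4 and 57.6 CPM (120 min) (0.67 at 120 min, SE 0.13, edgeR adjusted p = 0.013). All RBI2 libraries lay above both controls for SPATA5, but only the group at 120 min passed. The 3 genes still passed without the second control, at 0.46 for RPTOR, 0.99 for SIPA1L3 and 0.80 for SPATA5 (edgeR adjusted p = 0.013, 0.0044 and 0.012).

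The cell adhesion gene CDH4, a cadherin, rose from 183 and 175 CPM to 242 and 234 CPM at 120 min of RBI2 (log2 fold change 0.41, SE 0.08, edgeR adjusted p = 0.013). The transcription factor NFIA rose from 12.5 and 14.3 CPM to 18.4 and 18.3 CPM (0.46, SE 0.10, edgeR adjusted p = 0.016), and the matrix protein THSD4 from 14 and 16.2 CPM to 21.6 and 22.0 CPM (0.53, SE 0.12, edgeR adjusted p = 0.020). In all 3 the treated libraries lay above both controls, and without the second control all 3 still passed (0.37, 0.55 and 0.63, edgeR adjusted p = 0.029, 0.015 and 0.019). CDH4, NFIA and THSD4 were chosen after their values were seen, so the treated libraries lying above both controls adds no support.

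Others fell at 120 min of RBI2. SGMS1, a sphingomyelin synthase, went from 36.7 and 40.7 CPM to 27.6 and 29.4 CPM (log2 fold change -0.44, SE 0.09, edgeR adjusted p = 0.017), and it was also lower at 10 min of CX-5461 at 29.8 and 29.5 CPM (-0.38, SE 0.09, edgeR adjusted p = 0.042). DPYD, the first enzyme of pyrimidine breakdown, went from 57.4 and 62.4 CPM to 44.3 and 44 CPM (-0.44, SE 0.12, edgeR adjusted p = 0.035). STAG1 and STAG2, alternative subunits of cohesin, went from 78.1 and 103 CPM to 58.5 and 63.7 CPM (-0.57, SE 0.16, edgeR adjusted p = 0.037) and from 67.8 and 110 CPM to 58.1 and 57.6 CPM (-0.61, SE 0.19, edgeR adjusted p = 0.045). The controls of STAG2 differ more from each other than the first of them does from the treated libraries, and STAG2 overlaps SH2D1A and TEX13D on the same strand. HDAC9, a histone deacetylase, went from 25.5 and 43.2 CPM to 19.6 and 20.4 CPM (-0.77, SE 0.23, edgeR adjusted p = 0.042). SGMS1 still passed at 120 min of RBI2 without the second control (-0.37, edgeR adjusted p = 0.038) and not at 10 min of CX-5461 (-0.31, edgeR adjusted p = 0.14). The other 4 no longer passed, with -0.38 for DPYD, -0.36 for STAG1, -0.23 for STAG2 and -0.35 for HDAC9 (edgeR adjusted p = 0.10, 0.17, 0.24 and 0.24). DPYD, STAG1, STAG2 and HDAC9 were chosen after their values were seen. The reads in transcripts of at least 300 kb were 96.4% for SGMS1, 92.5% for DPYD and 99.0% for STAG1. They were 0.094% for STAG2 and 8.6% for HDAC9.

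**Figure D5:**
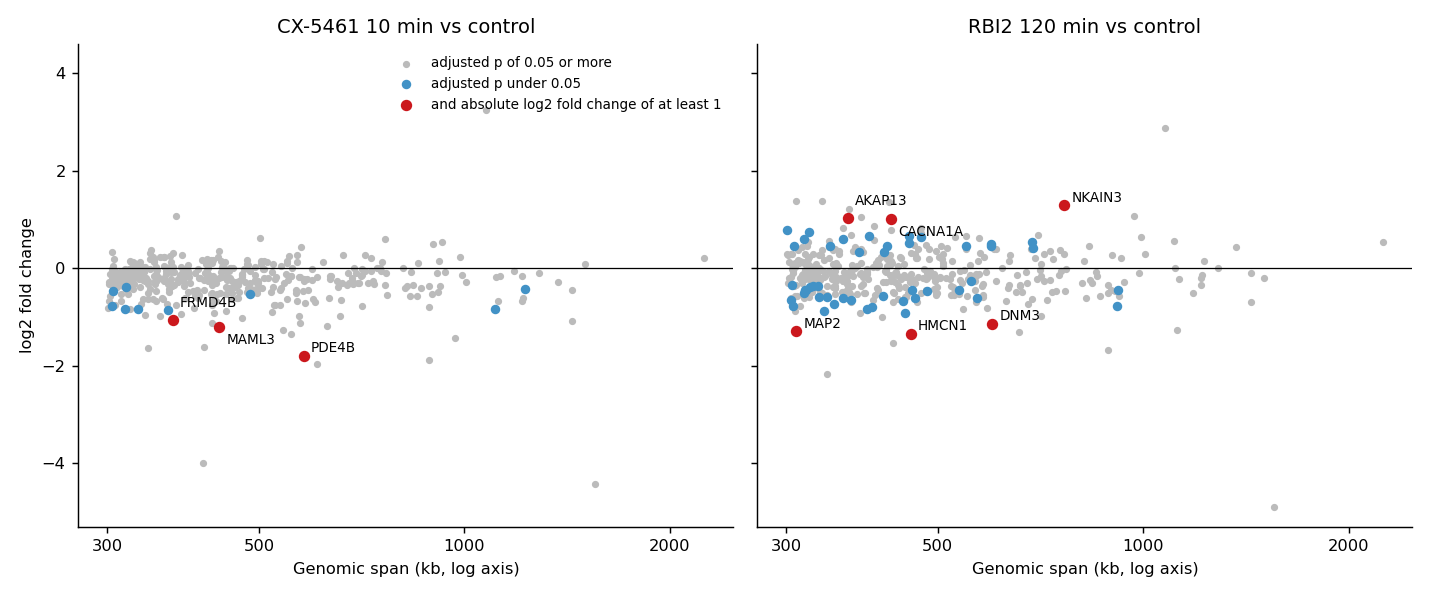
Log2 fold change against the control by genomic span (log axis, in kb) of the 429 members tested, at 10 min of CX-5461 and at 120 min of RBI2; blue points have an adjusted p under 0.05 in edgeR's test and red points also a change of at least 1. At 10 min of CX-5461 the 12 coloured points lie below 0, and at 120 min of RBI2 21 lie above 0 and 31 below.

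In the other 4 comparisons with the control no member was called by edgeR. At 10 min of RBI2 the count was 0 of 429 against a background of 0.0778%, at 30 min of RBI2 0 against 0.0389%, at 30 min of CX-5461 0 against 0% and at 120 min of CX-5461 0 against 0.0454%. Before adjustment, at a p under 0.05 and a change of at least 1, edgeR gave 3, 6, 8 and 4 members, against 1.94%, 2.21%, 2.15% and 1.87% of all genes, and DESeq2 with adjustment gave 1, 0, 0 and 0 (0.291%, 0.248%, 0.104% and 0.255%). With no limit on size the adjusted counts were 0 in all 4, against 0.201%, 0.0713%, 0% and 0.0778% of all genes. The 4 comparisons share their controls. Leaving out the first control gave 12, 22, 23 and 5 members called (4.45%, 6.59%, 7.03% and 3.76% of all genes), and 112, 161, 184 and 35 with no limit on size (29.1%, 38.3%, 39.3% and 21.5%). Leaving out the second gave 0 in each by both rules.

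The compounds were compared directly at each of the 3 times, at matched dose. The controls are in neither group of these comparisons, but they enter the model's estimate of the spread, and leaving out 1 of them changed the counts given below. At 10 min 3 members (0.699%) were called, all higher with RBI2, against 1.04% of all genes (0.635% higher). They were CACNA1A (log2 difference 1.37, SE 0.32, edgeR adjusted p = 0.046), PDE4B (1.18, SE 0.26, edgeR adjusted p = 0.037) and FRMD4B (1.02, SE 0.23, edgeR adjusted p = 0.043). PDE4B and FRMD4B are the genes that were low at 10 min of CX-5461, and the same CX-5461 libraries enter both comparisons. CACNA1A stood at 1.76 and 1.79 CPM with RBI2 and 0.808 and 0.556 CPM with CX-5461, around the controls at 1.18 and 1.12 CPM. With no limit on size 7 members (1.63%) passed, all higher with RBI2, against 3.06% of all genes (2.23% higher), among them SPATA5 (0.69, SE 0.13, edgeR adjusted p = 0.017) and SGMS1 (0.51, SE 0.09, edgeR adjusted p = 0.013). This count was 19 without the first control (6.21% of all genes) and 18 without the second (6.09%). The count called at 10 min was 0 or 1 when any treated library but the first of CX-5461 at 30 min was left out, against 0.585 to 0.898% of all genes.

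At 30 min no member differed between the compounds by edgeR (0 of 429, background 0.013%), with 8 before adjustment at a p under 0.05 and a change of at least 1 (1.45% of all genes) and 0 by DESeq2 (0.0867%). At 120 min 4 members (0.932%) were called, 3 higher and 1 lower with RBI2, against 1.67% of all genes (1.27% higher and 0.402% lower). This count was 0 with DESeq2 (1.17% of all genes), 0 without the second CX-5461 library of that time (0.154%) or either RBI2 library of that time (0.118% and 0.0309%), 2 without any 1 RBI2 library of 10 or 30 min (1.22 to 1.4%), and 10 without the first CX-5461 library (1.6%). NKAIN3 stood at 2.12 and 1.81 CPM with RBI2 and 0.774 and 0.406 CPM with CX-5461 (log2 difference 1.69, SE 0.36, edgeR adjusted p = 0.015). SYN3, a synaptic vesicle protein, stood at 1.65 and 1.30 CPM against 0.611 and 0.464 CPM (1.44, SE 0.34, edgeR adjusted p = 0.021), on 8 to 28 reads. In both genes the compounds did not overlap, which adds no support, since the same libraries gave the calls. The controls of SYN3 (1.06 and 0.799 CPM) lay between the 2 compounds, and those of NKAIN3 (0.870 and 0.719 CPM) overlapped CX-5461. CACNA1A was higher (1.06, SE 0.29, edgeR adjusted p = 0.035) and DNM3 lower with RBI2 (-1.10, SE 0.33, edgeR adjusted p = 0.047). Over the transcripts of DNM3 of at least 300 kb alone, which hold 75.2% of its reads, the difference was -0.43 (edgeR adjusted p = 0.48).

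With no limit on size 69 members (16.1%) differed between the compounds at 120 min, 19 higher and 50 lower with RBI2, against 16.1% of all genes (5.28% higher and 10.9% lower). It was 130 without the first control and 128 without the second (27.8% and 27.9% of all genes). The share of all genes passing fell when any library of this comparison was left out, and least without the first CX-5461 library. Corrected for GC content and length, 55 of the 69 passed (16.1% of all genes), and with transcript lengths as an offset 20 (6.55%). DPYD stood at 44.3 and 44 CPM with RBI2 and 74.1 and 87.8 CPM with CX-5461 (log2 difference -0.87, SE 0.12, edgeR adjusted p = 0.0067), with the controls between. STAG1 stood at 58.5 and 63.7 CPM against 93.6 and 114 CPM (-0.76, SE 0.16, edgeR adjusted p = 0.015). ZFHX3 stood at 64.4 and 70.0 CPM against 32.1 and 38.1 CPM (0.94, SE 0.19, edgeR adjusted p = 0.013), and its RBI2 libraries were the highest of all 14. EXOC4, a subunit of the exocyst that tethers vesicles, stood at 38.9 and 39.7 CPM against 50.6 and 56.0 CPM (-0.44, SE 0.10, edgeR adjusted p = 0.017). The genes in this paragraph were chosen after their values were seen.

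The members' median difference between the compounds was 0.10 at 10 min, 0.04 at 30 min and -0.19 at 120 min, with 0.01 over all genes at each time. At 30 min it was 0.10 without the first and -0.06 without the second CX-5461 library of that time. At 120 min it was -0.28 without the first and -0.05 without the second CX-5461 library. By span, the median at 120 min was 0.05 for genes under 10 kb, -0.19 for genes of 100 to 300 kb and -0.18, -0.24 and -0.06 for the 3 classes of members.

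Over all 7 groups together, 30 members (6.99%) varied at an adjusted p under 0.05, against 11% of all genes. The count was 92 with DESeq2 (28.6% of all genes), 223 without the first control (52.4%), 132 without the second (29.6%) and 3 without either library of RBI2 at 120 min (2.33% and 2.38%). It was 10 to 17, against 2.57 to 5.76% of all genes, without either library of CX-5461 or RBI2 at 10 min, either of RBI2 at 30 min or the second of CX-5461 at 120 min. The 5 with the lowest p were SPATA5, RPTOR, SIPA1L3, PDE4B and SGMS1, all described above, with edgeR adjusted p between 0.0093 and 0.0106. SPATA5, RPTOR and SIPA1L3 were highest at 120 min of RBI2, SGMS1 was lowest there and PDE4B at 10 min of CX-5461.

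The members fall into groups by what their proteins do. Beside their counts, 1.64% of all genes were called and 4.77% passed without a limit on size at 10 min of CX-5461, and 1.82% and 18% at 120 min of RBI2. The medians below rest on both controls, and most of them moved without the second, as the members' medians did. Without it they lay between -0.16 (cytoskeleton and matrix) and 0.24 (fragile sites) at 10 min of CX-5461. At 120 min of RBI2 they lay between -0.09 (trafficking) and 0.31 (fragile sites), the last about as with both controls. Of 60 genes of cell adhesion and synapse among the members, 19 were expressed enough to test, and their median was -0.33 at 10 min of CX-5461 and -0.29 at 120 min of RBI2. None was called in either comparison, and CDH4 alone passed without a limit on size, as a rise at 120 min of RBI2. Of 49 signalling genes 33 were tested, with medians of -0.31 and -0.22. At 10 min of CX-5461 PDE4B was called, and PDE11A and SRGAP1 also passed as lower. None was called at 120 min of RBI2, where PRKCE, an isoform of protein kinase C, and CAMK2D, a calcium-dependent kinase, passed as lower (-0.45 and -0.60) and SRGAP1 as higher (0.60, edgeR adjusted p = 0.047). Of 34 cytoskeleton and matrix genes 27 were tested, with medians of -0.45 and -0.19. DNM3 was called at 120 min of RBI2, and THSD4, TNS3 and TLN2 passed there as higher. HMCN1 and MAP2, described above as called there, are not on this list.

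Of 46 genes of transcription, chromatin and RNA binding 34 were tested, with medians of -0.41 at 10 min of CX-5461 and -0.10 at 120 min of RBI2. ZFHX3 passed in the first as lower, and NFIA (higher), HDAC9 and BICC1 (lower) in the second. Not named with this group are MAML3, described above as called in the first, and KLF12, STAG1 and STAG2. The last 3 passed as lower in the second. Of 33 genes of trafficking, ubiquitin and metabolism 25 were tested, with medians of -0.06 and -0.21. None passed in the first, and DPYD, SNX29, OXR1, COMMD10 and COG5 passed in the second, 1 higher and 4 lower. Of 43 channel, transporter and receptor genes 13 were tested, with medians of -0.28 and -0.02, and CACNA1A was the gene called.

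Of 23 genes in common fragile sites 10 were tested. Their medians were 0.02 at 10 min of CX-5461 and 0.32 at 120 min of RBI2, where 3 of the 10 were below 0. No gene of this group was called, and DPYD, lower at 120 min of RBI2, was the gene to pass there.

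With both control libraries none of the 5 longest members that could be tested was called. Of all genes, 1.64% were called at 10 min of CX-5461 and 1.82% at 120 min of RBI2. DMD, which encodes dystrophin and spans 2242 kb, had 0 to 15 reads per library, all in a transcript of 52.3 kb with no defined coding sequence. PDE4D, a cAMP phosphodiesterase of 1553 kb, had 154 reads in the second control and 224 in the second CX-5461 library at 120 min, and 0 to 12 in each of the other 12 libraries. FHIT, a hydrolase of diadenosine polyphosphates in a fragile site (1504 kb), stood between 2.46 and 3.61 CPM in all libraries, with 99.7% of its reads in transcripts of at least 300 kb. MAGI2, a scaffold of cell junctions (1437 kb), stood between 0.285 and 2.24 CPM. RBMS3, an RNA-binding protein (1436 kb) that overlaps ENSG00000283563 on its strand, stood between 18 and 30.6 CPM. The absence of calls depended on the first control. Without it PDE4D stood at -5.45 (log2, 10 min of CX-5461) and -5.93 (120 min of RBI2), and MAGI2 at -1.76 and -1.37. Without the second control PDE4D stood at 5.29 and 4.81, and MAGI2 at 0.08 and 0.47. DMD, FHIT and RBMS3 stayed between -0.69 and 0.90 in these fits.

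The 5 members with the highest CPM were LIMCH1, a regulator of non-muscle myosin (421 to 698 CPM over the libraries), CTNNA1, the α-catenin that ties cadherins to actin (403 to 543 CPM), PALM2AKAP2, which includes an anchor for protein kinase A (296 to 542 CPM), EXT1, an enzyme of heparan sulfate synthesis (270 to 343 CPM), and SH3KBP1, an adaptor of receptor uptake (211 to 360 CPM). Transcripts of at least 300 kb held 90.4% of the reads of EXT1. They held 13.7% for LIMCH1, 7.45% for SH3KBP1, 0.148% for PALM2AKAP2 and 0% for CTNNA1. With both control libraries none of the 5 was called or passed against the control. Of all genes, 4.77% passed at 10 min of CX-5461 and 18% at 120 min of RBI2. For some of the 5 genes this depended on the first control, but not for EXT1 in these 2 comparisons. Without the first control the log2 fold changes of the 5 genes ran from -0.62 to -0.08 and from -0.70 to -0.19 in these 2 comparisons. Without the second control they ran from -0.10 to 0.09 and from -0.17 to 0.26. LIMCH1 was highest in the second control (698 CPM, against 488 CPM in the first). Between the compounds at 120 min CTNNA1 was lower with RBI2, at 403 and 422 CPM against 490 and 543 CPM (log2 difference -0.33, SE 0.07, edgeR adjusted p = 0.017).

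A further pair of lists, of genes that are not members, holds the machinery that long genes rely on. Of 8 topoisomerase and repair genes none was called in these 9 comparisons, and TOP2B, TOP3A and TDP1 passed without a limit on size at 120 min of RBI2, 1 higher and 2 lower, where 18% of all genes passed. TOP2B, the topoisomerase II that non-dividing cells also make, went from 108 and 173 CPM in the controls to 80.5 and 93.1 CPM (log2 fold change -0.70, SE 0.21, edgeR adjusted p = 0.043), and without the second control it stood at -0.33 and did not pass (edgeR adjusted p = 0.24). With both control libraries TOP1 (317 and 451 CPM in the controls) and TOP2A (770 and 955 CPM) passed in no comparison, which depended on the first control. Without it TOP1 stood at -0.40 (log2, 10 min of CX-5461) and -0.55 (120 min of RBI2), and TOP2A at -0.42 and -0.26. Without the second control TOP1 stood at 0.11 and -0.04, and TOP2A at -0.11 and 0.06. Of 29 genes of polymerase II elongation none was called. At 120 min of RBI2, 5 passed as higher and 4 as lower (8.9% and 9.07% of all genes), and at 10 min of CX-5461 CCNT1, a cyclin of the elongation kinase P-TEFb, passed as lower (2.98% of all genes). CDK12, a kinase of elongating polymerase, stood at 87.4 and 161 CPM in the controls. With both of them it passed in no comparison, which depended on the first control. Without the first it stood at -0.81 (log2, 10 min of CX-5461) and -0.66 (120 min of RBI2), and without the second at 0.07 and 0.22.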

How the data were processed

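The authors removed reads that aligned to the ribosomal DNA repeat and assigned the rest to GRCh38 transcripts with Salmon, and deposited, per transcript and library, estimated counts of reads and TPM, a level scaled to transcript length and library total. The submitters' processing notes list STAR 2.7.6a, SAMtools 1.11, bedtools 2.29.2, Salmon 1.3.0 and DESeq2 1.28.1. The kit keeps strand. Here 225662 of 228754 transcripts were matched to GENCODE release 44 by identifier (214947 in the same version). Unmatched ones held 1.03 to 1.13% of reads per library and were left out. Estimated counts were summed per gene and rounded. edgeR 4.0.16 (R 4.3.3) with TMM normalization, filterByExpr with a minimum count of 10 and quasi-likelihood F tests was fitted to all 14 libraries as 7 groups, with Benjamini-Hochberg adjustment over 15426 genes. The common coefficient of variation was 12.27%. The rule for named genes took, among members, the 2 largest rises and falls called per comparison, the 5 longest tested, the 5 with the highest CPM, the 5 with the lowest p over all groups and called genes of the lists. Members and lists were chosen with earlier results of these data known. Library totals of 14112299 to 24849354 limit precision for genes of few reads. RefSeq promoters (GRCh38) gave the motif background. DESeq2 1.42.0, no filter, offsets for transcript length, corrections for GC content and length, other span limits, a replicate block and leaving out each library were tried. The test was checked on simulated data.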

Additional observations from a re-analysis of the deposited data

Results flagged for a closer look

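The following differences between the compounds, tested directly at matched time and dose with edgeR, stood out because they passed that test. At 10 min the log2 difference, RBI2 minus CX-5461, was 1.37 for CACNA1A, 1.18 for PDE4B and 1.02 for FRMD4B. At 120 min it was 1.69 for NKAIN3, 1.44 for SYN3, 1.06 for CACNA1A and -1.10 for DNM3. CACNA1A, NKAIN3, SYN3 and DNM3 rest on 44 reads or fewer in each library. At 10 min PDE4B rests on 29 and 32 reads with RBI2 and 15 and 15 with CX-5461. FRMD4B rests there on 83 and 86 reads with RBI2 and 49 and 44 with CX-5461. Most of these calls did not hold in most of 22 alternative settings. At 10 min the call was kept in 7 for CACNA1A, 8 for PDE4B and 7 for FRMD4B, and at 120 min in 17 for NKAIN3, 16 for SYN3, 10 for CACNA1A and 5 for DNM3. No setting reversed a direction. At each of the 2 times no member was called without 1 of the CX-5461 libraries of that time.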

How the results depend on the processing

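Of the 10 members called in any comparison, 8 had under 100 reads in every library, and whether depth set the counts was not tested. Counts of members called are given below for RBI2 and CX-5461 against the control, then for RBI2 against CX-5461, with the percentage of all genes called in the same fit in brackets. With DESeq2 they were 1 and 1 for RBI2 at 10 and 120 min (0.291 and 1.33%) and 0 direct at 120 min (1.17%). With no filter they were 7, 6 and 9 for RBI2 (1.04, 1.31 and 1.93%), 13, 6 and 6 for CX-5461 (2.12, 1.18 and 0.961%) and 6, 7 and 9 direct (1.16, 0.573 and 1.73%). An offset for transcript length gave 1 for RBI2 at 120 min (0.532%), 0 for CX-5461 at 10 min (1.2%) and 0 direct at 10 min (0.674%), and a correction for GC content and length gave 1 for RBI2 at 120 min (0.875%). With only the libraries of the comparison the same 3 comparisons gave 0, 0 and 5 (0, 0.0208 and 1.78%). With transcripts of at least 300 kb the counts were 1 for RBI2 at 10 min (0.0913%), 1 direct at 10 min (1.03%) and 8 direct at 120 min (1.78%). In the fit as reported, a limit of 200 kb gave 6 for CX-5461 at 10 min and 5 and 10 direct at 10 and 120 min, and a limit of 500 kb gave 2 for RBI2 at 120 min, 1 for CX-5461 at 10 min and 1 direct at 10 min (1.82, 1.64, 1.04 and 1.67% for RBI2 at 120 min, CX-5461 at 10 min, direct at 10 and at 120 min). With no limit on the change they were 52, 12, 7 and 69 in these 4 comparisons (18, 4.77, 3.06 and 16.1%).

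Same-numbered libraries deviated together little: 3 of 21 correlations of same-numbered deviations were over 0.1 (range -0.179 to 0.18). Those 3 were of the control with CX-5461 at 120 min (0.18), RBI2 at 120 min (0.16) and CX-5461 at 10 min (0.11). Such correlations over all genes cannot exclude that replicate numbers pair libraries. With a replicate block the counts were 2 for RBI2 at 120 min (1.56%), 2 for CX-5461 at 10 min (1.54%), 0 direct at 10 min (0.998%) and 3 direct at 120 min (1.58%), and 22 members varied over the groups (8.32%).

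The members' median log2 change was -0.045 and -0.051 for CX-5461 at 10 and 30 min and -0.0077 direct at 10 min with the GC and length correction, and 0.047 and -0.061 direct at 10 and 120 min with no filter. Members that varied over the groups numbered 92 with DESeq2 (28.6%), 175 with no filter (17.2%), 11 with the length offset (3.12%), 57 with the GC and length correction (18.9%), and 89 at 200 kb and 12 at 500 kb (11%). The cause was not tested.

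The share of reads, in the order control, RBI2 at 10, 30 and 120 min and CX-5461 at 10, 30 and 120 min, was 1.45, 1.32, 1.3, 1.37, 1.25, 1.23 and 1.5% outside mitochondrial genes, 1.49, 1.35, 1.33, 1.41, 1.28, 1.26 and 1.53% of nuclear protein-coding reads, 0.558, 0.575, 0.576, 0.579, 0.557, 0.555 and 0.655% as TPM, 3.17, 3.16, 3.12, 3.25, 3.0, 2.94 and 3.5% at 200 kb and 0.305, 0.302, 0.296, 0.312, 0.279, 0.276 and 0.342% at 500 kb.

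Leaving out each library in turn moved the counts called to 0 to 12, 0 to 23 and 0 to 25 for RBI2, 1 to 31, 0 to 23 and 0 to 5 for CX-5461 and 0 to 4, 0 to 0 and 0 to 10 direct. The ranges over all genes were 0.0431 to 4.45, 0 to 6.59 and 0.149 to 8.21% for RBI2, 0.798 to 8.33, 0 to 7.03 and 0.0124 to 3.76% for CX-5461 and 0.585 to 1.39, 0 to 0.037 and 0.0309 to 2.44% direct. The highest counts against the control came without the first control. The direct count at 10 min was 0 without the first library of CX-5461 at 10 min, and at 120 min it was 10 without the first and 0 without the second library of CX-5461 at 120 min. Medians ranged from -0.30 to 0.058, -0.39 to -0.0048 and -0.29 to 0.040 for RBI2, from -0.41 to -0.020, -0.45 to -0.027 and -0.13 to 0.22 for CX-5461 and from 0.08 to 0.10, -0.062 to 0.10 and -0.28 to -0.050 direct. Members that varied numbered 3 to 223 (2.33 to 52.4%). Shares ranged from 1.15 to 1.3% in the control, from 1.20 to 1.22, 1.17 to 1.20 and 1.22 to 1.24% with RBI2 and from 1.12 to 1.16, 1.05 to 1.20 and 1.27 to 1.47% with CX-5461.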
